A study of Mus musculus with 12 samples.

Results

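The 35 genes described here are the ATF4 amino acid response genes and cytosolic tRNA synthetase genes of VC1 mouse lung cancer cells. They were chosen by name, as genes known for this response, but with earlier results of these data known. By role they are 9 stress regulators, 7 enzymes of amino acid and one-carbon synthesis, 7 amino acid transport genes and 12 tRNA synthetases. The stress regulators, as named here, also include targets of the stress response such as Chac1 and Vldlr. Of the 35 genes, 34 had a probe on the arrays (73 probes), and 32 were among the 13280 genes tested. The probe of Psph, the last enzyme of serine synthesis, was detected on 0 arrays, and the 2 probes of the cationic amino acid carrier Slc7a1 on at most 1 array. The large neutral amino acid carrier Slc7a5 was not analysed here.

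VC1 is a lung adenocarcinoma line, labelled as female and of the A/J strain. Cells were exposed for 6 h to the DMSO vehicle, to CDDO-Im at 0.05 µM, to CDDO-Me at 0.1 µM or to DMF at 15 µM, and each of these 4 groups had 3 arrays. DMF is dimethyl fumarate, and the other compounds derive from a common synthetic oleanane triterpenoid, as its imidazolide (CDDO-Im) and its methyl ester (CDDO-Me). In the series title the 3 compounds are called NRF2 activators, NRF2 being a transcription factor of the electrophile response. The doses differed. The titles were followed for the 0.1 µM group, which the design text assigns to CDDO-Im. All groups share a single cell line, DMSO was the only control, and no label states that replicates came from separate cultures. The p-values therefore rest on a spread between arrays that may be only technical. In such bulk RNA, fewer cells with a transcript and less transcript per cell cannot be told apart.

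ATF4 is a transcription factor whose protein is made when the initiation factor eIF2 is phosphorylated by kinases that sense missing amino acids, heme shortage, viral RNA or misfolded protein. It joins partners of the C/EBP family at C/EBP-ATF response elements and is known to switch on genes that import amino acids, build asparagine, serine and glycine, and charge tRNAs. Because ATF4 is largely controlled at translation, its mRNA level is not a measure of its protein.

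Each of the 2 BeadChips carried all 4 groups. DMSO replicate 1 and CDDO-Im replicate 2, both on chip 1, stood apart. Their median correlations with the 10 other arrays were 0.916 and 0.936, while those 10 correlated at 0.988 or more among themselves. The raw signal averaged 439.6 and 457.2 on them and 551.6 to 683.7 on the others. Counts of calls and the members' differences from DMSO are therefore given from all 12 arrays and from the 10 arrays without these 2, and other values name the arrays they come from. Of 12 lung epithelial markers, 7 were detected on all 12 arrays (Cdh1, Krt8, Krt18, Krt19, Nkx2-1, Cldn18 and Muc1), and Epcam, Sftpc and Sftpd were detected on 0. None of 7 fibroblast, 6 leukocyte and 5 endothelial markers was detected on all 12 arrays. The leukocyte marker Cd68 and the endothelial marker Kdr were each detected on 11, as was the epithelial marker Sftpb. Summed over the 12 epithelial markers, the normalized signal was 40811 to 43484 in DMSO, 35978 to 38900 with CDDO-Im, 37639 to 39060 with CDDO-Me and 39818 to 42526 with DMF. All CDDO-Im and CDDO-Me arrays lay below all DMSO arrays in this sum, while the DMF arrays overlapped with DMSO. The sum is of unlogged signal, so Krt8, Krt18 and Krt19, the brightest markers, weigh most. In DMSO, CDDO-Im and CDDO-Me the mean log2 signals over 3 arrays were 13.36, 12.80 and 12.67 for Krt19. They were 13.85, 13.88 and 13.96 for Krt8 and 13.41, 13.44 and 13.47 for Krt18. In the 10 arrays the DMSO and CDDO-Im means were 12.99 and 12.68 for Krt19, 14.05 and 13.97 for Krt8, and 13.60 and 13.49 for Krt18. Over the 7 fibroblast markers, the normalized signal was 193.4 to 287.8 in DMSO, 238.5 to 355.1 with CDDO-Im, 220.3 to 237.7 with CDDO-Me and 188.2 to 223.8 with DMF. In the 10 arrays the DMSO and CDDO-Im ranges were 193.4 to 206 and 238.5 to 257.6. Among these markers Pdgfra had mean log2 signals of 4.70, 6.50, 5.90 and 5.27 in the same order. Pdgfra was detected on 0 DMSO arrays, while Col3a1, Dcn and Thy1 were detected on 0 arrays in all. The leukocyte sums were 220.7 to 373.7, 203.5 to 220.4, 213.9 to 237.9 and 211.1 to 245.6, and the endothelial sums 164.7 to 202, 154.3 to 287.2, 157.9 to 164.2 and 151.6 to 181.7. The part of these markers in the results below was not tested.

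Of the 35 members, 28 were matched to RefSeq promoter sequence (GRCm38.p6), in 33 windows of 250 bases before a transcript start. The core of the C/EBP-ATF element, TGATGNAA on either strand, stood in the windows of 7 of 28 members (25%), against 3.91% of 27025 genes. The core of the antioxidant response element to which NRF2 binds, TGACNNNGC on either strand, stood in 8 of 28 (28.6%), against 11.5% of genes, and no match of one overlapped a match of the other. The 7 stretches below are those with the C/EBP-ATF core, shown because they let its spelling be compared between members, 5′ to 3′ along each gene's own strand with the core in capitals. Where the capitals read TTGCATCA or TTTCATCA, the core lies on the opposite strand.
Asns (chr6:7693210-7693248, minus strand): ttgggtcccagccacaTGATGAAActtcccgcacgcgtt
Chac1 (chr2:119351033-119351072, plus strand): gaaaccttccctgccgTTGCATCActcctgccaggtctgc
Nupr1 (chr7:126625557-126625596, minus strand): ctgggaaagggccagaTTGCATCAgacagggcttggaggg
Vldlr (chr19:27216804-27216843, plus strand): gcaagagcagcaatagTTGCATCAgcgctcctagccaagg
Aars (chr8:111033714-111033753, plus strand): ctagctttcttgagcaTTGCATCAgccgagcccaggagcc
Gars (chr6:55037955-55037994, plus strand): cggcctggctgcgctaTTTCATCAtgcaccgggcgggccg
Tars (chr15:11399659-11399689, minus strand): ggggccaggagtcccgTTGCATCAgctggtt

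Chac1, Nupr1, Vldlr, Aars and Tars had the same 8 letters in the same orientation, while in Asns, and on the opposite strand in Gars, the core read TGATGAAA. The match began 15 bases before the start in Tars and 200 bases before it in Vldlr. The NRF2 core stood in Asns, Phgdh, Sesn2, Aars, Mars, Slc38a2, Slc7a1 and Slc6a9. Of these, Asns, Phgdh, Sesn2, Aars, Mars and Slc38a2 were not called against DMSO below, and Slc7a1 was not tested. Slc6a9 had 3 windows, more than most members, and the core stood in 2 of them. The 2 windows of Slc6a9 with that core are shown because this gene was one of the most changed transport genes, with the core in capitals.
Slc6a9 (chr4:117849288-117849328, plus strand): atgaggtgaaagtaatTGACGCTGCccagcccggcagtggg
Slc6a9 (chr4:117855486-117855526, plus strand): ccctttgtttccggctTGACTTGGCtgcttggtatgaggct

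Neither core was found in the windows of Slc1a4, Slc3a2, Trib3, Mthfd2, Cebpb or Atf4. By role, the C/EBP-ATF core stood in 3 of 9 stress regulators, 1 of 6 synthesis enzymes, 0 of 5 transport genes and 3 of 8 tRNA synthetases. The NRF2 core stood in 1, 2, 3 and 2 of them in the same order. Such matches describe the letters in these windows and not binding.

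With each compound a few members rose by a large amount and most did not pass the test. The same 4 genes rose with all 3 compounds in the 12 arrays: the neutral amino acid carrier Slc1a4, the glycine carrier Slc6a9, the pseudokinase gene Trib3 and Chac1, which encodes an enzyme that breaks down glutathione. Slc3a2, the heavy chain that brings several amino acid carriers to the cell surface, rose as well with CDDO-Im and CDDO-Me. The counts were 5 of 32 members higher and 0 lower with CDDO-Im, 5 and 0 with CDDO-Me, and 4 and 0 with DMF (limma, Benjamini-Hochberg adjusted p under 0.05 over 13280 genes). Among all genes tested, 1.42% were called higher and 0.392% lower with CDDO-Im, 1.02% and 0.399% with CDDO-Me, and 0.324% and 0.0226% with DMF. The 3 comparisons share the DMSO arrays, so their lists are not independent.

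In the 10 arrays the counts were 8 higher and 0 lower with CDDO-Im, 8 and 0 with CDDO-Me, and 11 and 0 with DMF. The background there was 5.75% higher and 5% lower with CDDO-Im, 5.55% and 5.54% with CDDO-Me, and 4.16% and 4.26% with DMF. The 10 arrays added the transcription factor gene Cebpb, the mitochondrial folate enzyme gene Mthfd2 and the asparaginyl-tRNA synthetase gene Nars with each compound. With DMF they also added Slc3a2, Atf4, Nupr1 and the cysteinyl-tRNA synthetase gene Cars. Every array of the compound lay above every DMSO array for 11 of 32 members with CDDO-Im, 15 with CDDO-Me and 17 with DMF, against 8.47%, 11.8% and 11.2% of all genes. Every array lay below for 0, 2 and 0 members, against 5.67%, 13.9% and 14.7%.

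The median difference was largest for transport genes and smallest for tRNA synthetases, with no test between roles. The median log2 difference from DMSO with CDDO-Im, CDDO-Me and DMF was 2.16, 2.04 and 1.72 over the 5 transport genes, and 0.42, 0.37 and 0.48 over the 9 stress regulators. It was 0.33, 0.32 and 0.32 over the 6 synthesis enzymes and 0.16, 0.09 and 0.19 over the 12 tRNA synthetases, beside 0.06, 0.00 and 0.00 over all genes tested. The transport genes ranged widely, from -1.26 to 2.76, from -0.34 to 2.91 and from -0.30 to 2.08. Their medians were the values of Slc6a9. In the 10 arrays the medians were 1.64, 1.79 and 1.60 for transport, 0.33, 0.24 and 0.51 for stress regulators, 0.11, 0.21 and 0.21 for synthesis and 0.05, 0.07 and 0.13 for tRNA synthetases. The median of all genes there was -0.02 in each comparison. Over all 32 members the 10-array log2 difference was over 1 for 4, 5 and 5 genes, between 0.5 and 1 for 3, 2 and 5, and within 0.5 of 0 for 25, 25 and 22.

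**Figure D1:**
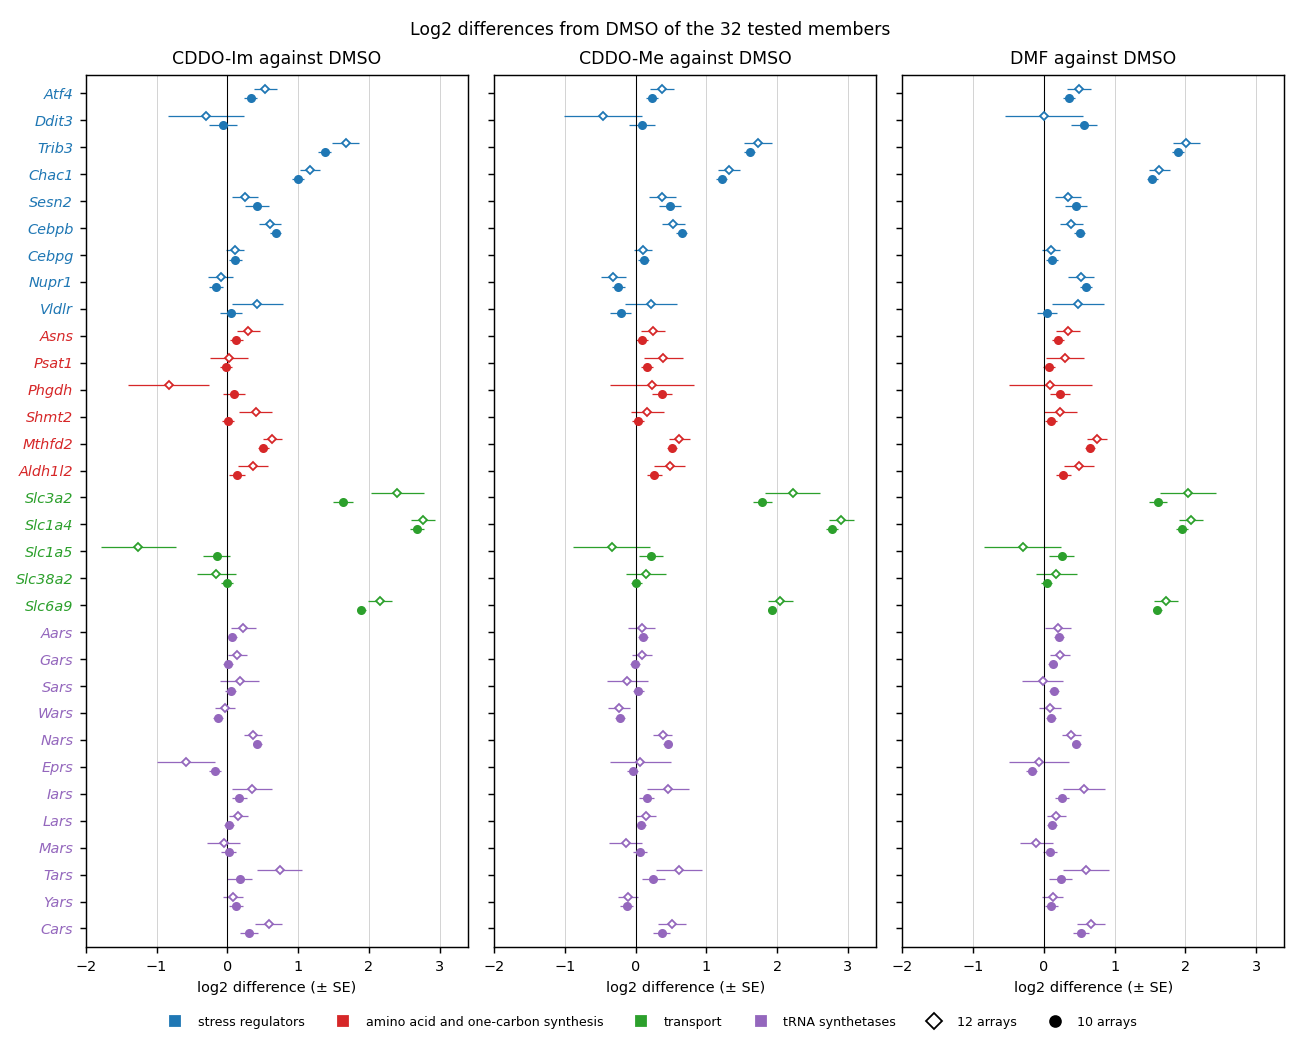
Log2 difference from DMSO (x axis, with the standard error from limma) of each of the 32 tested members (y axis, coloured by role) with CDDO-Im, CDDO-Me and DMF. Open diamonds are the fit of all 12 arrays and filled circles the fit of 10 arrays. Slc3a2, Slc1a4, Slc6a9, Trib3 and Chac1 lie furthest to the right in all 3 panels. The 12 tRNA synthetases lie between -0.59 (Eprs) and 0.74 (Tars) in the 12 arrays and between -0.22 (Wars) and 0.52 (Cars) in the 10.

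Among the transport genes, Slc1a4, which exchanges alanine, serine and cysteine across the plasma membrane, had the largest difference of all members with each compound. Its log2 signals were 8.91, 9.45 and 9.23 on the DMSO arrays, 12.08, 11.83 and 11.96 with CDDO-Im, 12.20, 12.11 and 11.98 with CDDO-Me, and 11.27, 11.37 and 11.18 with DMF. The groups did not overlap with DMSO, and the DMF arrays also lay below every triterpenoid array. Slc1a4 rose by 2.76 ± 0.17 on the log2 scale with CDDO-Im (6.78-fold, limma adjusted p = 2.82e-05), by 2.91 ± 0.17 with CDDO-Me (7.51-fold, limma adjusted p = 3.1e-05) and by 2.08 ± 0.17 with DMF (4.24-fold, limma adjusted p = 0.000613). The ± gives the standard error from limma unless SD is written. Without the outlying arrays the rises were 2.68, 2.78 and 1.95.

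Slc6a9, the plasma membrane carrier of glycine, had log2 signals of 9.75, 10.11 and 10.03 in DMSO, 11.99, 12.44 and 11.94 with CDDO-Im, 12.01, 11.97 and 11.99 with CDDO-Me, and 11.71, 11.68 and 11.62 with DMF. The CDDO-Me arrays were nearly equal (SD 0.02, n = 3), and the high CDDO-Im array was the outlying replicate 2. Slc6a9 rose by 2.16 ± 0.17 with CDDO-Im (limma adjusted p = 0.000127), 2.04 ± 0.17 with CDDO-Me (limma adjusted p = 0.000281) and 1.72 ± 0.17 with DMF (limma adjusted p = 0.00171). The 10-array values were 1.89, 1.93 and 1.60.

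Slc3a2 had log2 signals of 5.54, 6.95 and 7.17 in DMSO, 8.33, 9.48 and 9.06 with CDDO-Im, 8.62, 8.98 and 9.15 with CDDO-Me, and 8.57, 8.69 and 8.96 with DMF. All treated arrays lay above all DMSO arrays, and the lowest DMSO and highest CDDO-Im values were those of the outlying arrays. It rose by 2.40 ± 0.38 with CDDO-Im (limma adjusted p = 0.0104) and 2.22 ± 0.39 with CDDO-Me (limma adjusted p = 0.0237), while the difference with DMF was 2.04 ± 0.39 (limma adjusted p = 0.0848). The CDDO-Me call was lost when DMSO replicate 3, CDDO-Im replicate 3 or any CDDO-Me or DMF replicate was left out, with adjusted p up to 0.21 and log2 differences of 1.81 to 2.48 over all 12 such fits. The DMF difference was called without DMSO replicate 1 (1.64, limma adjusted p = 0.0498) or without CDDO-Im replicate 2 (1.99, limma adjusted p = 0.038). It rose in the 10 arrays by 1.64, 1.79 and 1.61 with CDDO-Im, CDDO-Me and DMF, with limma adjusted p of 0.000245, 8.46e-05 and 0.000315.

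The glutamine carrier Slc1a5 and the neutral amino acid carrier Slc38a2 were not called in either fit. Slc1a5 stood at log2 4.57 on CDDO-Im replicate 2 and 8.03 on DMSO replicate 1, against 5.90 to 6.75 on the 10 other arrays. Its difference with CDDO-Im was -1.26 ± 0.53 in the 12 arrays and -0.15 ± 0.19 in the 10. With CDDO-Me and DMF it differed by -0.34 and -0.30 in the 12 arrays and by 0.22 and 0.25 in the 10, so the sign rested on the outlying arrays. Slc38a2 differed by -0.16, 0.15 and 0.18 in the 12 arrays and by 0.00, 0.01 and 0.04 in the 10. Another kept Slc38a2 probe, of nearly the same mean log2 signal (10.957 against 10.963), differed by 0.57, 0.55 and 0.85 in the 12 arrays. The standard errors of that probe were 0.55 to 0.57. A dimmer kept probe differed by 0.37, 0.13 and 0.05. So 3 transport genes rose while these 2, by the probes in the fit, had differences of at most 0.25 in the 10 arrays.

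**Figure D2:**
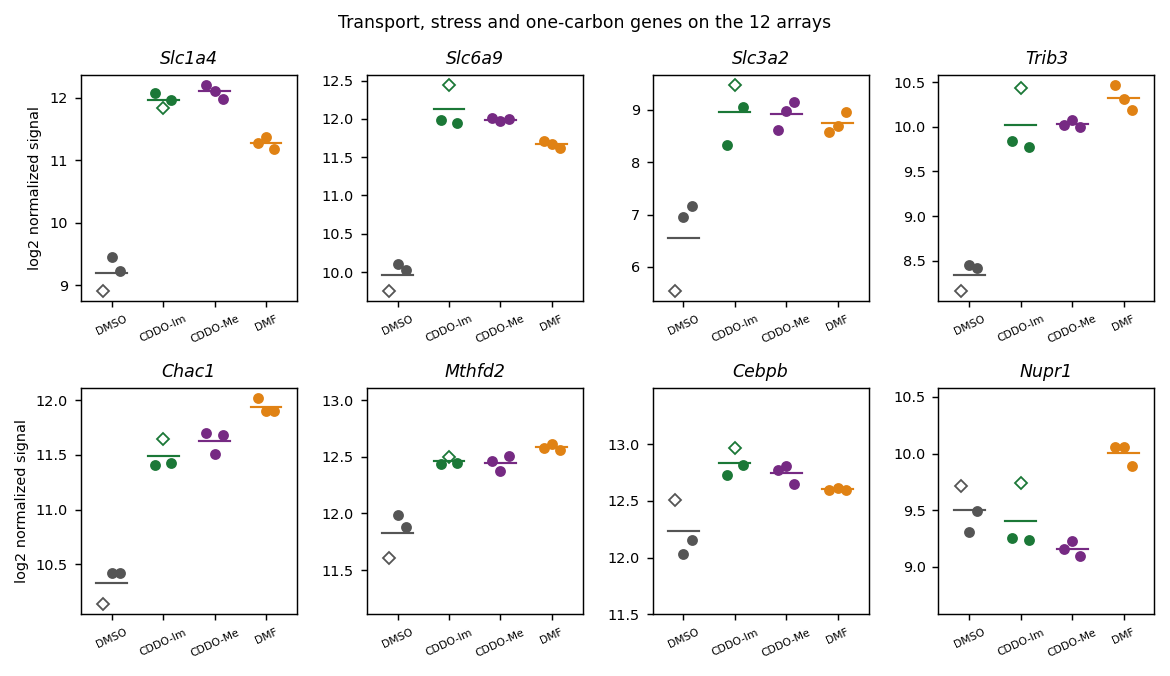
Log2 normalized signal (y axis) of 8 members on the 12 arrays, by treatment (x axis). Points are arrays, bars are group means of 3 arrays, and open diamonds mark DMSO replicate 1 and CDDO-Im replicate 2. The DMF arrays are the lowest treated arrays for Slc1a4 and Slc6a9 and the 3 highest arrays for Nupr1, and each panel has its own y range.

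Among the stress regulators, Trib3 and Chac1 rose with every compound. Trib3, a pseudokinase gene known as an ATF4 target whose protein in turn restrains ATF4, had log2 signals of 8.16, 8.45 and 8.42 in DMSO. They were 9.84, 10.44 and 9.77 with CDDO-Im, 10.02, 10.08 and 10.00 with CDDO-Me, and 10.47, 10.31 and 10.19 with DMF. No treated array came near DMSO, and within the 10 arrays DMF was the highest group. Trib3 rose by 1.67 ± 0.19 with CDDO-Im (limma adjusted p = 0.00156), 1.73 ± 0.19 with CDDO-Me (limma adjusted p = 0.00185) and 2.01 ± 0.19 with DMF (limma adjusted p = 0.00125). The 10-array rises were 1.37, 1.61 and 1.899. Both other kept probes of Trib3 had positive differences with each compound, from 0.15 to 1.47.

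Chac1, whose promoter held the C/EBP-ATF core shown above, had log2 signals of 10.13, 10.42 and 10.42 in DMSO. They were 11.41, 11.64 and 11.42 with CDDO-Im, 11.70, 11.50 and 11.68 with CDDO-Me, and 12.02, 11.90 and 11.90 with DMF, so the 3 DMF arrays were the highest of all. Chac1 rose by 1.17 ± 0.15 with CDDO-Im (limma adjusted p = 0.00301), 1.32 ± 0.15 with CDDO-Me (limma adjusted p = 0.00202) and 1.63 ± 0.15 with DMF (limma adjusted p = 0.00114). Its 10-array rises were 1.00, 1.22 and 1.53.

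The Atf4 mRNA itself differed from DMSO by at most 0.54. Its log2 signals were 11.57, 12.01 and 12.04 in DMSO, 12.31, 12.52 and 12.40 with CDDO-Im, 12.18, 12.41 and 12.20 with CDDO-Me, and 12.45, 12.35 and 12.37 with DMF. All treated arrays lay above all DMSO arrays, but by small steps. The differences were 0.54 ± 0.16, 0.37 ± 0.17 and 0.49 ± 0.17 with none called, and in the 10 arrays 0.33, 0.24 and 0.36, with the DMF value called (limma adjusted p = 0.0405). Its other kept probe differed by -0.02, 0.33 and 0.39.

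Cebpb, which encodes a C/EBP partner of ATF4, had log2 signals of 12.51, 12.03 and 12.16 in DMSO, 12.73, 12.97 and 12.81 with CDDO-Im, 12.78, 12.81 and 12.65 with CDDO-Me, and 12.60, 12.61 and 12.60 with DMF. Here the outlying DMSO array was the highest of its group, close to the DMF arrays. Cebpb was not called in the 12 arrays (0.61, 0.53 and 0.39), and in the 10 arrays it rose by 0.68, 0.65 and 0.51 (limma adjusted p = 0.0013, 0.00102 and 0.00645). Its relative Cebpg, another partner of ATF4, differed by 0.10 in each comparison in the 12 arrays and 0.11 in the 10, and was not called in either fit. The other kept Cebpg probe, dimmer and detected on 11 arrays, differed by -0.32, -0.18 and -0.19 in the 12 arrays, so the probes disagreed in sign.

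Nupr1, a small stress-induced nuclear protein gene, went in different directions. The log2 signals were 9.71, 9.31 and 9.50 in DMSO, 9.25, 9.74 and 9.24 with CDDO-Im, 9.15, 9.23 and 9.10 with CDDO-Me, and 10.06, 10.06 and 9.89 with DMF. All DMF arrays lay above and all CDDO-Me arrays below DMSO, while CDDO-Im overlapped it. In the 12 arrays the differences of -0.10, -0.32 and 0.52 were not called. Nupr1 rose in the 10 arrays by 0.60 with DMF (limma adjusted p = 0.00645), and the differences with CDDO-Im and CDDO-Me were -0.16 and -0.24 (limma adjusted p = 0.365 and 0.128).

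Ddit3, which encodes the stress factor CHOP, showed no call and rested heavily on the outlying arrays. It stood at log2 10.03 on DMSO replicate 1 against 7.68 and 8.10 on the other DMSO arrays, and at 9.23 on CDDO-Im replicate 2 against 7.87 and 7.78. Its log2 signals were 8.10, 8.16 and 7.67 with CDDO-Me and 8.58, 8.52 and 8.23 with DMF. The differences were -0.31, -0.47 and 0.00 in the 12 arrays, and -0.06, 0.09 and 0.56 in the 10 (limma adjusted p = 0.893, 0.808 and 0.104). Sesn2, which encodes a leucine sensor that restrains mTORC1, differed in the 10 arrays by 0.42, 0.49 and 0.45 (limma adjusted p = 0.166, 0.0868 and 0.114), and in the 12 by 0.25, 0.38 and 0.34. The lipoprotein receptor gene Vldlr differed by 0.42, 0.22 and 0.48 in the 12 arrays and by 0.05, -0.21 and 0.05 in the 10, and neither gene was called in either fit.

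Of the synthesis enzymes, Mthfd2 was called in the 10 arrays and none in the 12. It encodes a mitochondrial enzyme that oxidizes folate-bound one-carbon units taken from serine. The log2 signals of Mthfd2 were 11.60, 11.99 and 11.88 in DMSO, 12.44, 12.50 and 12.45 with CDDO-Im, 12.47, 12.37 and 12.50 with CDDO-Me, and 12.58, 12.61 and 12.56 with DMF. The treated arrays lay above all DMSO arrays and close together. In the 12 arrays the differences were 0.64 ± 0.14, 0.62 ± 0.14 and 0.75 ± 0.14 (limma adjusted p = 0.0558, 0.0981 and 0.0842). Mthfd2 rose in the 10 arrays by 0.51, 0.52 and 0.65 (limma adjusted p = 0.00405, 0.00231 and 0.0013).

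Asns, the asparagine synthetase gene often used as a reporter of amino acid shortage, had log2 signals of 12.29, 12.89 and 12.75 in DMSO and 12.87 to 13.11 on the 9 treated arrays. The CDDO-Me and DMF arrays overlapped with DMSO, and the lowest array was the outlying DMSO replicate 1. Asns differed by 0.29 ± 0.16, 0.24 ± 0.17 and 0.34 ± 0.17 in the 12 arrays and by 0.13, 0.09 and 0.20 in the 10, with no call. The serine synthesis genes Psat1 and Phgdh, the mitochondrial serine hydroxymethyltransferase gene Shmt2 and the folate dehydrogenase gene Aldh1l2 were not called either. In the 10 arrays Psat1 differed by -0.02, 0.16 and 0.07, Phgdh by 0.09, 0.37 and 0.23, Shmt2 by 0.01, 0.04 and 0.10, and Aldh1l2 by 0.14, 0.26 and 0.28. The 12-array differences were mostly larger, at 0.02, 0.39 and 0.30 for Psat1, 0.40, 0.16 and 0.23 for Shmt2, and 0.36, 0.48 and 0.50 for Aldh1l2. Those of Phgdh with CDDO-Me and DMF were 0.24 and 0.09. A dimmer kept Shmt2 probe, detected on 11 arrays, differed by -1.36, -0.38 and -0.35 in the 12 arrays, with standard errors up to 0.71. Phgdh stood at log2 6.81 on CDDO-Im replicate 2 against 9.71 and 9.15 on the other CDDO-Im arrays, beside a 12-array difference with CDDO-Im of -0.83 ± 0.57.

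The 12 tRNA synthetases, which join each amino acid to its tRNA, had 0 calls in the 12 arrays with any compound. At an unadjusted p under 0.05, 3 of them passed with CDDO-Im, 2 with CDDO-Me and 2 with DMF in that limma fit, against 12.7%, 8.07% and 7.07% of all genes. In the 10 arrays 1 was called with CDDO-Im, 1 with CDDO-Me and 2 with DMF, all higher. Of all genes, 5.75%, 5.55% and 4.16% were called higher there. Every array of the compound lay above every DMSO array for 2 of the 12 with CDDO-Im, 4 with CDDO-Me and 7 with DMF, against 8.47%, 11.8% and 11.2% of all genes, and below for 0, 1 and 0, against 5.67%, 13.9% and 14.7%.

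Nars, for asparagine, was called with each compound in the 10 arrays. The log2 signals were 11.775, 11.492 and 11.584 in DMSO, 11.901, 12.001 and 12.025 with CDDO-Im, 11.986, 11.998 and 12.020 with CDDO-Me, and 12.002, 11.981 and 12.033 with DMF. The 9 treated arrays lay within a narrow band above DMSO. Nars rose there by 0.42, 0.45 and 0.46 (limma adjusted p = 0.00619, 0.00271 and 0.00455), against 0.36 ± 0.13, 0.38 ± 0.13 and 0.38 ± 0.13 in the 12 arrays.

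Cars, for cysteine, had log2 signals of 5.65, 6.08 and 5.98 in DMSO, 6.21, 6.80 and 6.45 with CDDO-Im, 6.49, 6.25 and 6.39 with CDDO-Me, and 6.73, 6.38 and 6.50 with DMF. All treated arrays were above DMSO. It rose by 0.52 with DMF in the 10 arrays (limma adjusted p = 0.0328), and its differences with CDDO-Im and CDDO-Me were 0.30 and 0.37 (limma adjusted p = 0.196 and 0.0903). The 12-array differences of 0.58, 0.51 and 0.67 were not called. Its other kept probe, detected on 4 arrays, had negative differences of -0.59, -0.19 and -0.23 in the 12 arrays, so the probes disagreed in sign.

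The 10 other tRNA synthetases, none of them called in either fit, had differences between -0.22 and 0.26 in the 10 arrays and between -0.59 and 0.74 in the 12. Of the 3 with the C/EBP-ATF core above, Tars differed by 0.18, 0.25 and 0.24 in the 10 arrays and by 0.74, 0.61 and 0.60 in the 12. Aars differed by 0.06, 0.10 and 0.22 in the 10 arrays and 0.23, 0.08 and 0.20 in the 12, and Gars by 0.01, -0.01 and 0.12 and then 0.14, 0.09 and 0.23. Iars, for isoleucine, differed by 0.17, 0.15 and 0.26 in the 10 arrays and 0.35, 0.46 and 0.56 in the 12. For Lars, which charges leucine, the values were 0.02, 0.08 and 0.11 and then 0.15, 0.14 and 0.18. Tars and Iars thus had smaller differences without the outlying arrays. Sars, Mars and Yars, for serine, methionine and tyrosine, differed by at most 0.14 in either direction in the 10 arrays and by at most 0.17 in the 12. A dimmer kept Sars probe differed by 0.16, 0.50 and 0.55 in the 12 arrays, with standard errors of 0.24 to 0.25. The Yars probe, at a mean log2 signal of 5.33, was detected on 8 arrays, so a change of Yars could be missed. Eprs, for glutamate and proline, differed by -0.18, -0.04 and -0.17 in the 10 arrays and by -0.59, 0.07 and -0.07 in the 12. It stood at log2 8.34 on CDDO-Im replicate 2 against 10.24 and 10.03 on the other CDDO-Im arrays. Wars, for tryptophan, had its lowest value with CDDO-Me, at -0.22 in the 10 arrays (limma adjusted p = 0.0699) and -0.24 in the 12. With CDDO-Im and DMF it differed by -0.13 and 0.10 in the 10 arrays and by -0.03 and 0.09 in the 12.

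**Figure D3:**
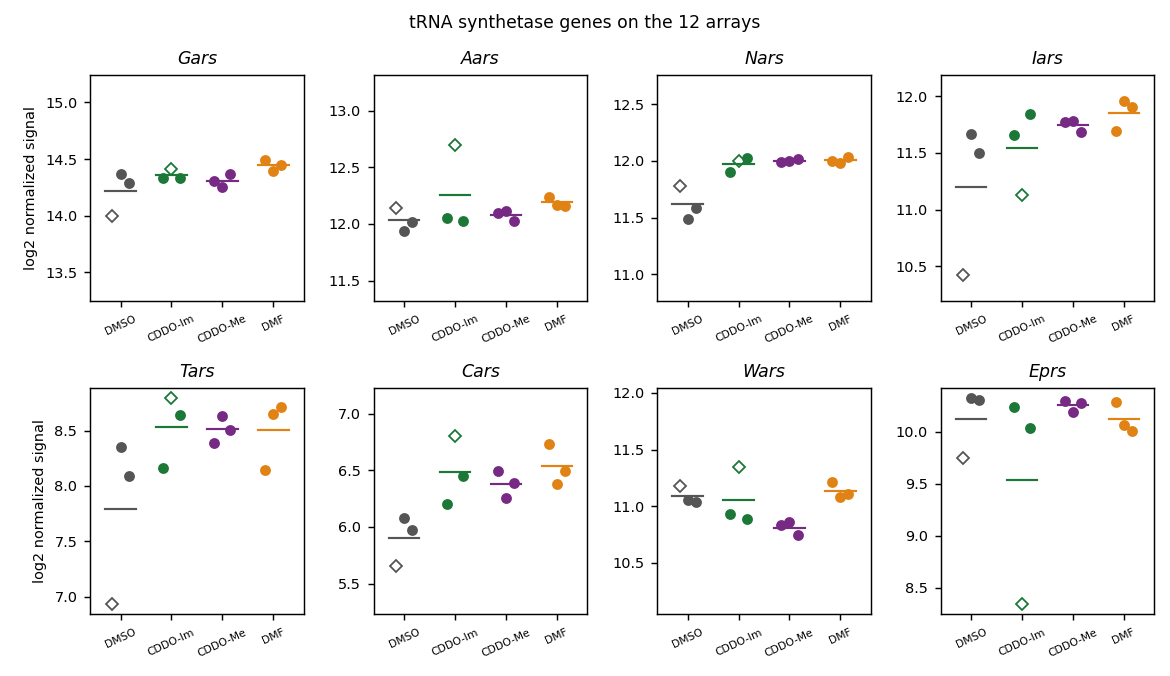
Log2 normalized signal (y axis) of 8 tRNA synthetase genes on the 12 arrays, by treatment (x axis). Points are arrays, bars are group means of 3 arrays, and open diamonds mark DMSO replicate 1 and CDDO-Im replicate 2. Nars and Cars lie higher on every treated array than on the DMSO arrays, Wars is lowest with CDDO-Me, and Eprs at 8.34 shows how far an outlying array could fall from its group.

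Within the chips the called members kept their direction, but few arrays stood behind each value. Chip 2 held only 1 DMSO and 1 CDDO-Im array, and chip 1 only 1 CDDO-Me and 1 DMF array. The DMSO mean of chip 1 included the outlying replicate 1. Slc1a4 differed from DMSO by 2.77, 3.02 and 2.09 on chip 1 and by 2.73, 2.82 and 2.04 on chip 2, with CDDO-Im, CDDO-Me and DMF. Slc6a9 differed by 2.29, 2.07 and 1.77 on chip 1 and 1.91, 1.95 and 1.62 on chip 2, and Slc3a2 by 2.66, 2.37 and 2.33 and then 1.89, 1.9003 and 1.66. Trib3 gave 1.83, 1.71 and 2.16 on chip 1 and 1.36, 1.62 and 1.83 on chip 2, and Chac1 1.25, 1.42 and 1.75 and then 1.00, 1.17 and 1.48. Both outlying arrays were on chip 1, where the differences of these genes were larger. Fits of only the 2 groups compared, which leave few arrays to estimate the spread, called 0 members with CDDO-Im, 2 with CDDO-Me (Slc1a4 and Slc6a9) and 0 with DMF.

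Between compounds, the treatments as dosed were tested in 3 pairs, and none of the 32 members was called in the 12 arrays. At an unadjusted p under 0.05 in that limma fit, 0 members passed between CDDO-Im and CDDO-Me, 4 between CDDO-Im and DMF and 2 between CDDO-Me and DMF, against 1.55%, 3.32% and 2.46% of all genes. At the adjusted threshold 0%, 0% and 0.0904% of all genes were called in either direction. In the 10 arrays 0, 4 and 5 members were called in these pairs, against 0.136%, 1.81% and 4.2% of all genes. As the doses differed, these tests compare the treatments and not the compounds at a matched dose.

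The members that separated the triterpenoids from DMF in the 10 arrays went both ways. Slc1a4 was higher by 0.73 with CDDO-Im than with DMF (95% interval 0.53 to 0.93, limma adjusted p = 0.00729) and by 0.82 with CDDO-Me (0.65 to 1.00, limma adjusted p = 0.000945). Slc6a9 was higher by 0.32 with CDDO-Me (0.20 to 0.44, limma adjusted p = 0.0135), and by 0.29 with CDDO-Im (limma adjusted p = 0.0582). Nupr1, Chac1, Trib3 and Wars lay on the other side of DMF. The difference from DMF in Nupr1 was -0.75 with CDDO-Im (-0.96 to -0.55, limma adjusted p = 0.00651) and -0.84 with CDDO-Me (-1.02 to -0.66, limma adjusted p = 0.000945). Chac1 gave -0.53 with CDDO-Im (limma adjusted p = 0.0141) and -0.31 with CDDO-Me (limma adjusted p = 0.0425). Trib3 gave -0.52 with CDDO-Im (limma adjusted p = 0.019) and -0.29 with CDDO-Me (limma adjusted p = 0.072). Wars gave -0.32 with CDDO-Me (limma adjusted p = 0.0198). Roles did not divide evenly: Cebpb differed from DMF by 0.17 and 0.14 with CDDO-Im and CDDO-Me, Slc3a2 by 0.02 and 0.18, and Slc1a5 by -0.40 and -0.04, and none of these was called.

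The imidazolide and the methyl ester were not separated by any member. Their log2 difference, CDDO-Im minus CDDO-Me in the 10 arrays, was -0.10 for Slc1a4 (95% interval -0.30 to 0.11), -0.03 for Slc6a9 (-0.17 to 0.11) and -0.16 for Slc3a2 (-0.46 to 0.15). It was -0.24 for Trib3 (-0.42 to -0.05) and -0.22 for Chac1 (-0.40 to -0.05), both with a limma adjusted p of 0.482. These intervals are not adjusted for the number of genes, and for Trib3 and Chac1 they do not reach 0. For Nars, Mthfd2 and Cebpb the differences were -0.03, -0.01 and 0.03.

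**Figure D4:**
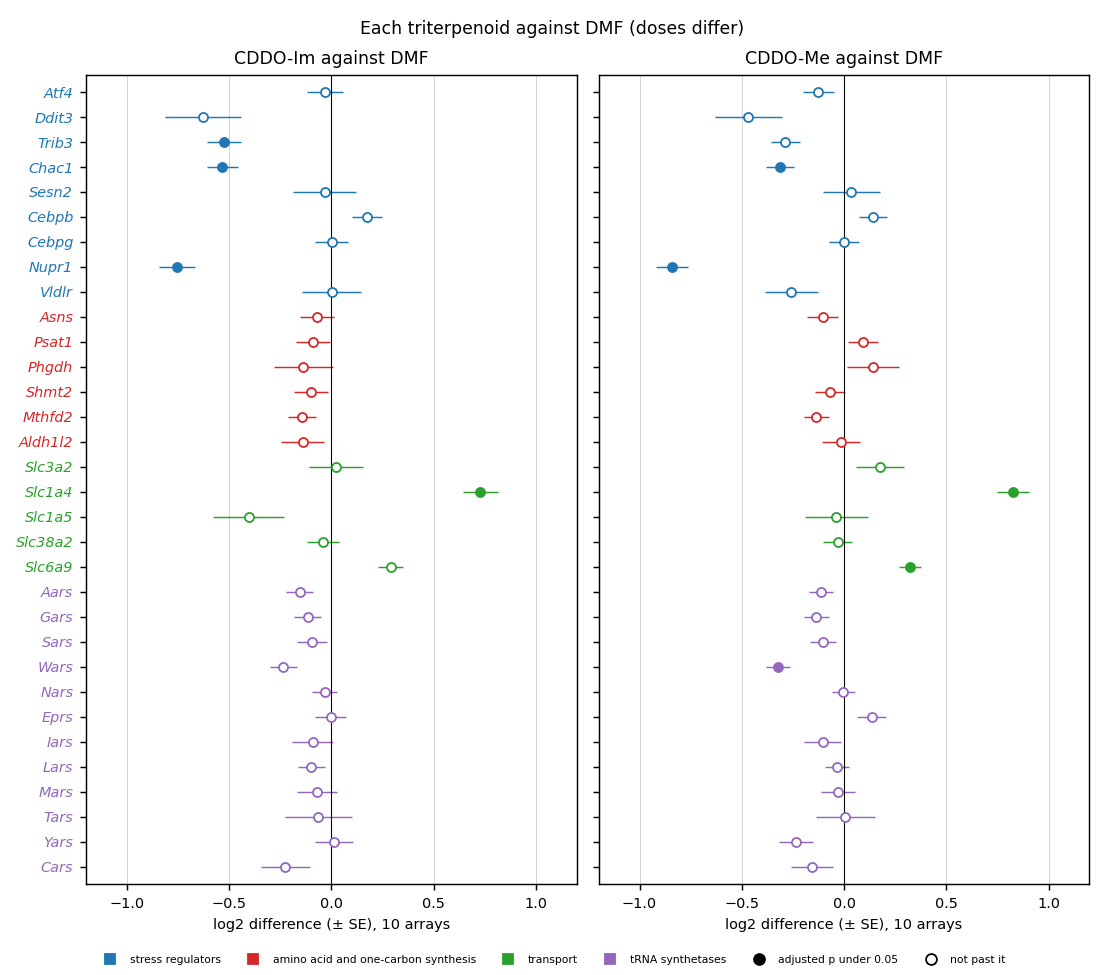
Log2 difference (x axis, with the standard error from limma, 10 arrays) of CDDO-Im minus DMF and CDDO-Me minus DMF for the 32 tested members (y axis, coloured by role). Filled circles passed an adjusted p of 0.05 over all genes, and open circles did not. Slc1a4 lies to the right in both panels, at 0.73 and 0.82, and Nupr1 to the left, at -0.75 and -0.84.

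Other genes of the pathway were counted from lists drawn up by function, also with earlier results of these data known. Of 17 tested further targets of the stress response, 1 was called higher with each compound in the 12 arrays and 0 lower. This was Slc7a11, the cystine carrier whose partner is Slc3a2, with log2 rises of 3.83 ± 0.17, 3.72 ± 0.17 and 3.39 ± 0.17 with CDDO-Im, CDDO-Me and DMF. The 10-array counts were 2, 5 and 6 higher and 0 lower. Of all genes, 5.75%, 5.55% and 4.16% were called higher and 5%, 5.54% and 4.26% lower in the 10 arrays. Gdf15, a stress-induced secreted factor, rose there by 0.76 with CDDO-Im and 0.46 with DMF (limma adjusted p = 0.00225 and 0.0222). Gpt2, the mitochondrial alanine transaminase gene, rose by 0.64 with CDDO-Me and 0.62 with DMF (limma adjusted p = 0.000896 and 0.00234). Herpud1, which acts in the disposal of misfolded proteins from the endoplasmic reticulum, rose by 0.35 and 0.61 with the same compounds, and Eif4ebp1, a brake on cap-dependent translation, by 0.39 with CDDO-Me (limma adjusted p = 0.0211).

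Of the eIF2 kinase genes, Eif2ak1 and Eif2ak2 were tested. Eif2ak3 and the GCN2 gene Eif2ak4 were not, as their probes were detected on at most 1 and 2 arrays. Of 12 tested genes for eIF2, its kinases and its exchange factor, 0 were called in the 12 arrays. In the 10 arrays 1, 1 and 2 were higher and 0, 0 and 1 lower. The shares of all genes there were 5.75%, 5.55% and 4.16% higher and 5%, 5.54% and 4.26% lower. Impact, an inhibitor of the eIF2 kinase GCN2, rose there with each compound by 0.58, 0.62 and 0.36 (limma adjusted p = 0.00127, 0.000505 and 0.0134). Its log2 signals were 11.43, 11.41 and 11.51 in DMSO and 11.77 to 12.12 on the 9 treated arrays, so the groups did not overlap. The other kept Impact probe, detected on 11 arrays, differed by -0.47, -0.08 and -0.07 in the 12 arrays, so the probes disagreed in sign. With DMF in the 10 arrays the eIF2 subunit gene Eif2s2 rose by 0.31 and the exchange factor subunit gene Eif2b2 fell by 0.33 (limma adjusted p = 0.0352 for both).

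Of 11 other cytosolic synthetases and scaffold genes, 0 were called in the 12 arrays, and 1 was higher in the 10 arrays, the complex factor Eef1e1 with CDDO-Im (0.33, limma adjusted p = 0.0213). Of all genes, 5.75%, 5.55% and 4.16% were called higher in the 10 arrays with CDDO-Im, CDDO-Me and DMF. Qars, for glutamine, had the smallest p of this list with CDDO-Me and DMF, at differences of -0.16 and -0.23 in the 10 arrays (limma adjusted p = 0.218 and 0.102). Of 14 mitochondrial synthetases, 0 were called in the 12 arrays, and 0 were called higher in the 10 arrays. Lars2 differed by -0.16 with CDDO-Me and -0.24 with DMF and was not called. The medians of the 10-array differences were -0.03, 0.00 and 0.03 for the other cytosolic genes and -0.01, -0.03 and -0.06 for the mitochondrial ones.

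Probes of the same gene often disagreed. Of the 18 members with several kept probes, all probes had the same sign for 8 with CDDO-Im, 13 with CDDO-Me and 12 with DMF in the 12 arrays. Slc1a4, Slc6a9, Slc3a2 and Chac1 each rest on a single kept probe. For Wars the 3 other kept probes had differences of -1.10 to -0.07, and for Asns the 2 others -0.34 to 1.02 with standard errors up to 0.91.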

How the data were processed

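RNA of 12 samples was hybridized to 12 arrays. The deposited intensity values were mean bead signals of 45281 probes, exported without normalization or background subtraction, per the file headers. The detection p-values were deposited beside them. The authors' own normalized matrix of intensities served as an alternative; how it was normalized is not given in the sources used here. The array number limits the precision.

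Signals were corrected with limma's normexp method (offset 16, background from the detection p-values), quantile normalized and log2 transformed. A probe was kept if 3 or more arrays detected it at p under 0.05 (19211 probes). Names were updated through RefSeq by Entrez number (29586 probes) or accession (2759), and 12936 kept the array's name. Each gene was represented by its kept probe of highest mean, 13280 in all. Groups came from the sample titles. One limma fit (version 3.58.1, R 4.3.3) of 12 arrays held group and chip, with two-sided tests, Benjamini-Hochberg adjustment over the 13280 genes and a threshold of 0.05. It was also run on simulated arrays. Their spread was taken from the 10 other arrays, so the effect of the outlying arrays was not simulated. The 10-array fit had the same terms and was chosen knowing which arrays stood apart.

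All members are named. Of each further list, up to 4 called genes are named by size, or the gene with the smallest p. A result among the mitochondrial synthetases is not reported here. The members and lists were chosen with earlier results of these data known. Promoter windows came from RefSeq (GRCm38.p6) and were searched on both strands. Alternatives were the offset, background, normalization, filter, probe choice, chip term, replicate block, array weights, the authors' matrix, the 2 groups alone and leaving out each array.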

Additional observations from a re-analysis of the deposited data

How the results depend on the processing

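All counts here are members called of 32, for CDDO-Im, CDDO-Me and DMF against DMSO and then CDDO-Im and CDDO-Me against DMF, where all 12 arrays gave 5, 5, 4, 0 and 0. Without the 2 outlying arrays the counts were 8, 8, 11, 4 and 5. With array weights they were 13, 16, 15, 7 and 6. Those weights were 0.032 for DMSO replicate 1 and 0.042 for CDDO-Im replicate 2. For DMSO replicates 2 and 3 they were 0.55 and 4.17, so the DMSO level rested mostly on replicate 3. The share of all genes called with these weights is not given here, and the cause of the higher counts was not tested. Fits of only the 2 groups compared gave 0, 2 and 0 against DMSO, with fewer arrays behind each spread, and 3 between CDDO-Me and DMF (Slc1a4, Slc6a9 and Nupr1). The authors' matrix gave 1 for CDDO-Me against DMF, Slc1a4; the cause was not tested. Leaving out each array in turn gave 5 to 8 for CDDO-Im, 4 to 8 for CDDO-Me, 4 to 6 for DMF and 0 to 1 between CDDO-Me and DMF, which was Slc1a4 without DMSO replicate 1 and Nupr1 without CDDO-Im replicate 2. The 8 with both triterpenoids came without DMSO replicate 1, when Cebpb, Mthfd2 and Nars were called. Without the detection filter Slc3a2 with CDDO-Me had a limma adjusted p of 0.0582. No difference called in the 12 arrays changed sign under any alternative. Slc1a4, Slc6a9, Trib3 and Chac1 kept their calls in all 12 of those fits with each compound. Deviations of samples with the same replicate number correlated at 0.15 to 0.36 for number 3, but at -0.20 to 0.34 for number 1 and -0.30 to 0.14 for number 2, and 7 of 12 arrays correlated best with their own number. With the replicate number as a block in place of the chip, the counts against DMSO were 5, 5 and 5. Dim probes near background, such as those of Yars and Cars, limit what can be seen.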
